A study of Bos taurus with 8 samples.

Results

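The genes that write, keep and remove DNA methylation were described in 6 stem-like cell lines grown from bovine embryos (eSLCs) and in bovine somatic cells (SCs). The 10 genes are the methyltransferases DNMT1, DNMT3A and DNMT3B, the maintenance factors UHRF1 and HELLS, the oxidases TET1, TET2 and TET3, the DNA glycosylase TDG and the methyl-CpG binding protein MBD2. They were chosen by name, and an array probe was assigned to a gene through its RefSeq accession. By this rule 5 of the 10 genes had probes, 14 probes in all: DNMT1 (NM_182651), DNMT3A (NM_001206502), DNMT3B (NM_181813), UHRF1 (NM_001103098) and TDG (NM_001083696). TET1, TET2, TET3, HELLS and MBD2 had no probe with a matching accession and were not analysed here. The whole array gave 12603 genes through 26743 of its 43653 probes. All 5 genes with probes passed the filter described below.

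Total RNA of 8 samples from HanWoo (Korean native) cattle was labelled with Cy3 and hybridised to 8 one-colour Agilent bovine oligonucleotide arrays. The eSLC lines came from embryos of 3 origins, with 2 lines each: in vitro produced (IVP) embryos gave I2 at passage 35 and I9 at passage 30, somatic cell nuclear transfer (NT) embryos gave N2 at passage 36 and N7 at passage 30, and parthenogenetic (PA) embryos gave P1 at passage 31 and P4 at passage 36. All 6 lines were grown from blastocysts in a medium with N2 and B27 supplements and the MEK inhibitor PD184352, the FGF receptor inhibitor SU5402 and the GSK3 inhibitor CHIR99021, on mitomycin-C inactivated mouse STO feeder cells, whose part in the signals was not tested. SCs were grown in DMEM with 10% fetal bovine serum and sampled at passages 5 and 10 (SC P5 and SC P10). The labels do not say whether the pair of SC samples came from separate cultures or animals, so p-values measure only the spread between these samples. Medium, feeder cells, passage and cell type differ together between eSLCs and SCs and cannot be told apart.

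DNA methylation is set down at new sites by DNMT3A and DNMT3B. DNMT1 copies it to the daughter strand at each replication, guided by UHRF1, which binds hemimethylated CpG, and helped by the chromatin remodeller HELLS. TET enzymes oxidise the methyl group and TDG cuts out the oxidised base, which base excision repair then replaces. In early mammalian embryos the mark is first lost and then written again around implantation, and the trophoblast is known for a lower methylation than the embryo proper.

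The spots well above background made up 71.2 to 76.7% of each array, and no spot was saturated. The marker genes set the cell types as follows. Of 11 trophectoderm markers tested 10 were called higher in eSLCs than in SCs, and of 10 fibroblast markers 9 were called lower. Of 6 pluripotency markers 2 were called higher (SALL4 and LIN28A) and 2 lower (SOX2 and KLF4), which gives no single direction. Of 6 hypoblast markers only PDGFRA was called, and it was lower. These counts stand beside 19.7% of all tested genes called higher and 15.7% called lower. The summed trophectoderm signal was 441400 to 1302000 in eSLCs against 13230 and 13600 in SCs, and the summed fibroblast signal was 5401 to 10590 against 511700 and 613500. CDX2, ELF5 and PAG2 were not well above background in either SC sample, and FBN1 was at the floor in all 6 eSLC lines. The pluripotency factor POU5F1 read 30.72 to 898.1 in the eSLC lines, with N7 highest, against 16.26 and 26.02 in SCs, and NANOG read 13.28 to 35.36 against the floor in both SC samples, and neither was called. N7 stood apart by its summed hypoblast signal, 128600 against 3652 to 8897 in the other 5 lines and 14760 and 12850 in SCs. Most of the N7 sum was APOA1 (112600). GATA4 (2918), HNF4A (9022) and PDGFRA (1422) were also highest in N7 among the lines. SOX17 (2664) lay inside the span of the other lines, and AFP (15.89) was lowest in N7. Each result below compares whole cultures, in which fewer cells of a type and less RNA per cell cannot be told apart.

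Signals are background-subtracted spot intensities divided by the 75th percentile of their array and multiplied by 1000, with a floor of 13.3, the highest over the 8 arrays of the lowest signal that was well above background on an array. A gene with several probes is given by its brightest probe. A difference is a difference of mean log2 signals, and a gene was called changed at a Benjamini-Hochberg adjusted p below 0.05 over all 10957 genes tested together with a difference of at least 2-fold (limma). Levels of different genes come from different probes and are not compared.

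The de novo methyltransferases were the measured genes that separated eSLCs from SCs most. DNMT3A read 35150 in I2, 5219 in I9, 4268 in N2, 23960 in N7, 31990 in P1 and 33600 in P4, against SC values of 896.5 (P5) and 1197 (P10). Every eSLC line was above both SC samples, and the lines fell into 4 high ones and the lower pair I9 and N2. DNMT3A was 15.9-fold higher in eSLCs on average, a log2 difference of 3.99 (SE 0.893, limma adjusted p = 0.0136), from a mean log2 of 14.01 ± 1.41 (SD, n = 6) against 10.02 ± 0.29 (SD, n = 2). DNMT3B read 749.7 in I2, 125.5 in I9, 99.99 in N2, 505.5 in N7, 531.7 in P1 and 429.7 in P4, and in both SC samples it lay at the floor and was not well above background. DNMT3B was at least 24.1-fold higher in eSLCs, with both SC samples set to the floor, a log2 difference of 4.59 (SE 0.837, limma adjusted p = 0.00641). It passed the filter through the eSLC arrays alone. Both SC values are the floor, so its SE and p-value hold no measured SC spread and do not weigh like those of DNMT3A. I9 and N2 were again the lowest lines. Each slide held 1 SC sample with 3 eSLC lines, and within the slides of SC P5 and SC P10 the log2 differences were 4.19 and 3.80 for DNMT3A and 4.77 and 4.42 for DNMT3B.

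Of the 5 measured genes, 2 were called higher in eSLCs and none lower, beside 19.7% of all tested genes called higher and 15.7% called lower (35.4% in either direction). The difference was larger for 4.36% of all tested genes than for DNMT3A and larger for 3.45% than for DNMT3B. The place of DNMT3B rests on the floor set for both SC samples and is not a measured rank. With the lower floor its log2 difference was 5.45. It also passed the filter through the eSLC arrays alone. The median difference over the 5 genes was 1.31 on the log2 scale, and it was 0.23 over all tested genes. The former is the value of UHRF1, which was not called, and does not show a rise of the 5 genes as a group. Neither gene was called without SC P5, without SC P10 or with the SC samples counted as 1 sample. The log2 difference of DNMT3A was then 3.78, 4.2 and 3.99. That of DNMT3B stayed at 4.59 in each of these fits, since both SC samples held the floor value. For DNMT3B the fits therefore cannot show whether the call depends on either SC sample, only that it is lost with fewer arrays.

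**Figure D1:**
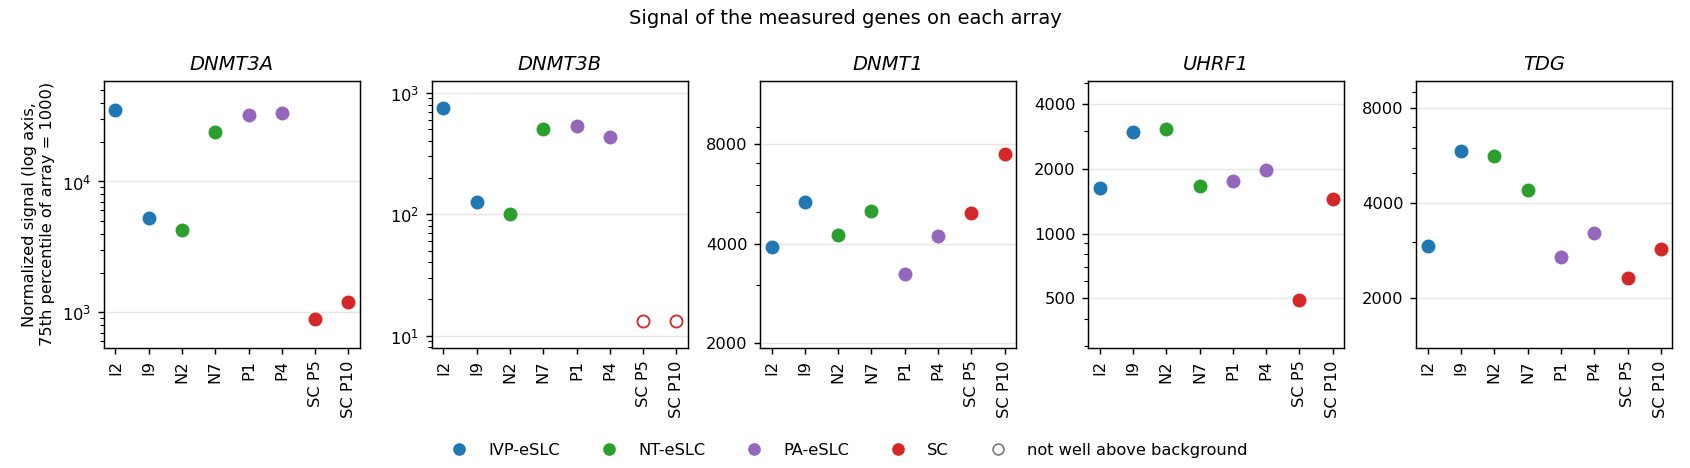
Normalized signal (log axis, the 75th percentile of each array set to 1000) of the 5 measured genes on each of the 8 arrays, coloured by origin, with open circles where the probe was not well above background. DNMT3A and DNMT3B lie above both SC samples in all 6 eSLC lines, with I9 and N2 lowest, while the same lines are the highest for UHRF1 and TDG.

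The arrays carried 3 probes for DNMT3A, and their differences were unequal. The second probe (A_73_110736) read 5283 in I2, 909.1 in I9, 541.2 in N2, 3672 in N7, 3193 in P1 and 3246 in P4, against SC values of 201.8 (P5) and 177.5 (P10). It repeated both the separation from SCs and the low values of I9 and N2, with a log2 difference of 3.51 (SE 0.91, limma adjusted p = 0.0245 over 22822 probes). The remaining probe (A_73_P167767) was dim, between 41.84 and 140.9 in eSLCs against 41.78 and 41.95 in SCs, and its log2 difference of 0.75 (SE 0.364, limma adjusted p = 0.145) did not pass the test. The exons or transcripts that each probe reads were not examined.

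The brightest DNMT3A probe had another pattern over the eSLC lines in the series matrix, the table of processed values deposited beside the scanner output. Scaled in the same way, it read 42390 in I2, 28570 in I9, 65810 in N2, 24620 in N7, 44590 in P1 and 51430 in P4 there, so that N2 was the highest line instead of the lowest. It was still far above the SC samples, at 1126 and 1775. The series matrix gave this probe the same unscaled value in SC P5 and SC P10 to within 0.1%. This held for 6871 of the 43653 probes, and for 11 probes in the scanner output. Of the 14 probes described here, 4 were among them, including the brightest TDG probe, 1 DNMT1 probe and 1 UHRF1 probe. The second DNMT3A probe and the DNMT3B probe were not, and in the series matrix they kept I9 and N2 as the lowest lines, with 1221 and 484.6 for the former and 168.5 and 78.2 for the latter. The cause was not tested.

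The maintenance methyltransferase DNMT1 did not pass the test. It read 3905 in I2, 5328 in I9, 4245 in N2, 5029 in N7, 3235 in P1 and 4219 in P4, against SC values of 4964 (P5) and 7446 (P10). I9 and N7 lay above SC P5 and all lines lay below SC P10, so the groups overlapped. The log2 difference was -0.51 (SE 0.244, 95% interval -1.11 to 0.09, limma adjusted p = 0.135), and it was -0.08 on the slide with SC P5 and -0.94 on the slide with SC P10. The other 3 DNMT1 probes gave -0.10 to -0.56 and none was called.

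UHRF1, which brings DNMT1 to newly replicated DNA, was by its brightest probe higher in all 6 eSLC lines than in both SC samples. It did not pass the test. It read 1630 in I2, 2963 in I9, 3063 in N2, 1663 in N7, 1747 in P1 and 1966 in P4, against SC values of 493.3 (P5) and 1444 (P10). The SC samples differed 2.93-fold from each other, more than the 6 lines did (1.88-fold from lowest to highest), and SC P10 lay just under the lowest eSLC line. The log2 difference was 1.31 (SE 0.488, 95% interval 0.12 to 2.51, limma adjusted p = 0.0703). It was 0.54 without SC P5 (adjusted p = 0.461) and 2.09 without SC P10 (adjusted p = 0.0459), which passed the test. Within the slides it was 2.02 (SC P5) and 0.60 (SC P10), and with the slide as a block the same difference of 1.31 passed the test (adjusted p = 0.0215). Of its 4 probes, 1 passed the test (A_73_P399386, log2 difference 1.80, SE 0.409, limma adjusted p = 0.0157), and the other 3 gave 1.15 to 1.38. On 1 of these (A_73_P032806) the groups overlapped, with I2 (523.3) and N7 (495.0) below SC P10 (548.0). Groups of arrays that did not overlap were found for 3 of the 5 measured genes (DNMT3A, DNMT3B and UHRF1), beside 57.6% of all tested genes.

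The glycosylase TDG was the only eraser with a probe by the accession rule. It read 2914 in I2, 5867 in I9, 5649 in N2, 4416 in N7, 2691 in P1 and 3203 in P4, against SC values of 2316 (P5) and 2866 (P10). P1 lay below SC P10, and I9 and N2 were the highest lines. The log2 difference of 0.61 (SE 0.300, 95% interval -0.13 to 1.35, limma adjusted p = 0.145) did not pass the test, and the second TDG probe gave 0.50. Within the slides of SC P5 and SC P10 it was 0.87 and 0.35.

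**Figure D2:**
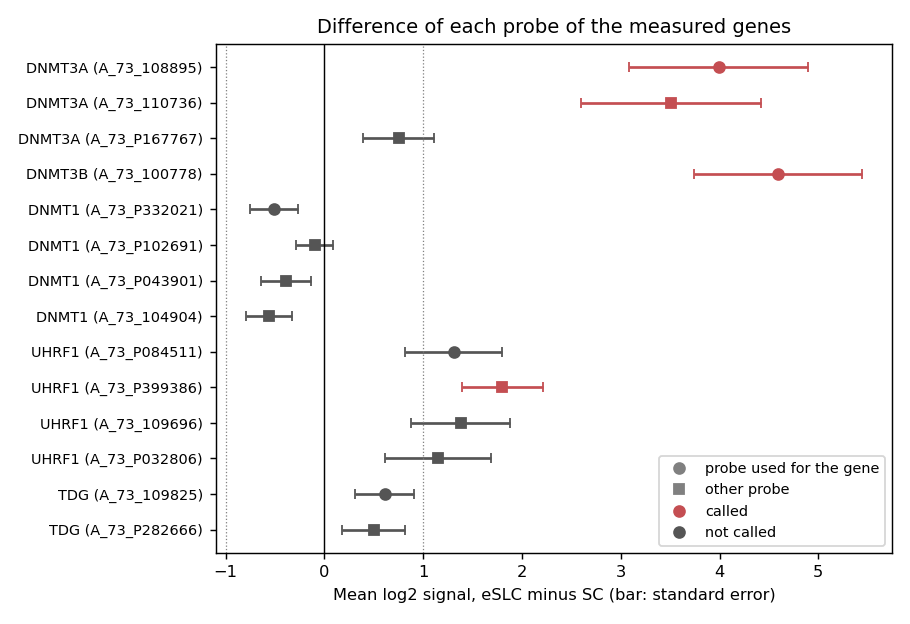
Difference of mean log2 signal, eSLC minus SC, with its standard error (bars), for each of the 14 probes of the 5 measured genes, with dotted lines at a 2-fold difference. The first pair of DNMT3A probes and the DNMT3B probe lie between 3.51 and 4.59, the dim DNMT3A probe at 0.75, the UHRF1 probes between 1.15 and 1.80, and the DNMT1 probes between -0.56 and -0.10.

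The eSLC lines were far apart from each other in the de novo enzymes. The SD over the 6 lines was 1.41 for DNMT3A and 1.21 for DNMT3B on the log2 scale, and only 3.57% and 5.32% of all tested genes had a larger one (the median was 0.35). DNMT3A spanned 8.24-fold from its lowest to its highest line and DNMT3B spanned 7.50-fold. The SDs of TDG (0.49), UHRF1 (0.42) and DNMT1 (0.26) lay closer to the median gene. I9 and N2 came from different origins, at passages 30 and 36, and were hybridised on different slides. In both of them DNMT3A and DNMT3B were lowest while UHRF1 and TDG were highest, by the brightest probes in the scanner output. The UHRF1 probe that passed the test had P4 highest (1059, against 1036 in I9 and 1041 in N2), and the other UHRF1 probes kept I9 and N2 highest. In the series matrix the brightest UHRF1 probe read 2493 in N7 and 2282 in N2. The brightest DNMT3A probe was there highest in N2 (65810). The summed signal of the 10 fibroblast markers was 10590 in I9 and 10390 in N2, against 6116 in I2, 5401 in N7, 5479 in P1 and 8851 in P4. That of the 11 trophectoderm markers was 743200 in I9 and 1302000 in N2, inside the span of the other lines for I9 and above it for N2. Their part in the result was not tested.

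Split by origin, the de novo enzymes were above SCs in all 3 kinds of eSLC. The 3 comparisons use the same pair of SC samples. Both SC values of DNMT3B are the floor, so its p-values below hold no measured SC spread. In IVP-eSLCs the log2 difference from SCs was 3.71 for DNMT3A (SE 1.09, limma adjusted p = 0.0422), and DNMT3B was at least 23.1-fold higher (adjusted p = 0.0179). These are 2 of the 5 genes, beside 17.7% of all genes called higher. In NT-eSLCs DNMT3B was at least 16.9-fold higher (limma adjusted p = 0.0272), while DNMT3A missed the threshold with a log2 difference of 3.29 (SE 1.09, adjusted p = 0.0635). This is 1 of the 5 genes, beside 15.8% of all genes called higher. In PA-eSLCs the log2 difference was 4.98 for DNMT3A (SE 1.09, limma adjusted p = 0.0148), and DNMT3B was at least 36.0-fold higher (adjusted p = 0.0105), again 2 of the 5 genes, beside 20.3% of all genes called higher.

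DNMT1, UHRF1 and TDG were not called against SCs in any origin with all 8 arrays. Both IVP lines were on the slide of SC P5 and both PA lines on that of SC P10. With the slide as a block, UHRF1 was called in IVP-eSLCs (1.99, adjusted p = 0.0230) and NT-eSLCs (1.42, adjusted p = 0.0405), and in IVP-eSLCs DNMT3A (3.19, adjusted p = 0.115) and DNMT3B (3.94, adjusted p = 0.0541) no longer were. For DNMT1 the log2 difference from SCs was -0.41 in IVP-, -0.40 in NT- and -0.72 in PA-eSLCs. For UHRF1 it was 1.38, 1.42 and 1.13. For TDG it was 0.68, 0.96 and 0.19, and in IVP-eSLCs it was 1.19 and called without I2 (adjusted p = 0.0460) and 0.18 without I9. Within each origin the calls of the de novo enzymes rested on single arrays. Without I2 the IVP differences were 2.33 for DNMT3A (adjusted p = 0.160) and 3.24 for DNMT3B (adjusted p = 0.0690). Without N7 the NT difference of DNMT3B was 2.91 (adjusted p = 0.0925), and without N2 that of DNMT3A was 4.53 and was called (adjusted p = 0.0360). Without P1 or without P4 neither gene was called in PA-eSLCs (adjusted p = 0.0521 to 0.0743), nor DNMT3A in IVP-eSLCs (0.0813) or DNMT3B in NT-eSLCs (0.0583), whose spread is estimated jointly. Without I2 or without I9 DNMT3A was called in NT-eSLCs (adjusted p = 0.0392), and without either SC sample none of the 5 genes was called in any origin.

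**Figure D3:**
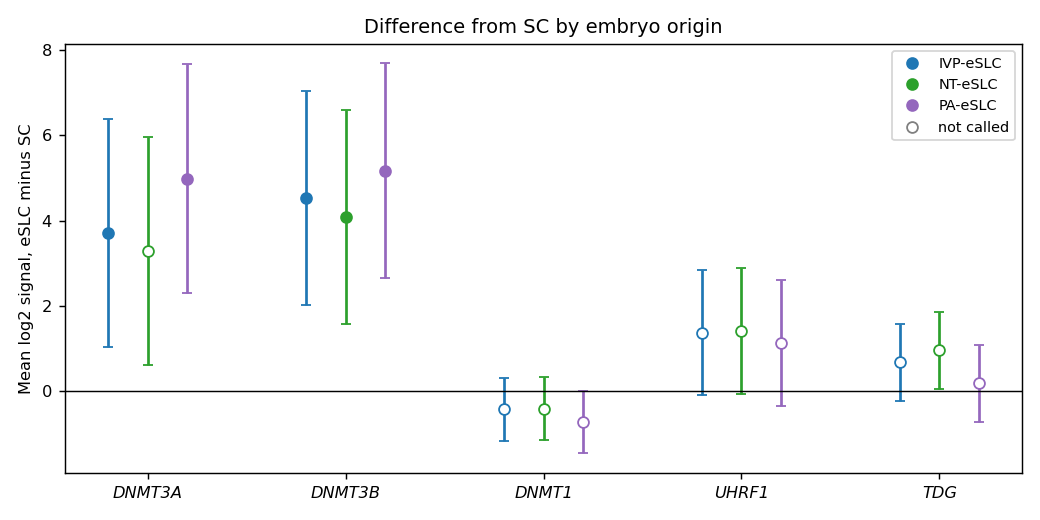
Difference of mean log2 signal between eSLCs of each origin and SCs for the 5 measured genes, with 95% intervals and open circles where the gene was not called. DNMT3A and DNMT3B lie between 3.29 and 5.17 in the 3 origins, with intervals that overlap one another.

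Compared directly, the origins could not be separated by these genes. None of the 5 genes was called between NT- and IVP-eSLCs, between PA- and IVP-eSLCs or between PA- and NT-eSLCs, and 0 of all 10957 genes were (0.0% in each) by limma. At an unadjusted p below 0.05 none of the 5 genes passed either, while 306, 568 and 1091 of all genes did (2.79, 5.18 and 9.96%). The methods' t-test with adjusted p called 0, 1 and 0 of all genes and none of the 5, and without N2 limma called 60 of all genes in NT against IVP and 55 in PA against NT. The widest differences were those of DNMT3A, 1.70 higher in PA- than in NT-eSLCs (SE 1.09, 95% interval -0.98 to 4.38) and 1.28 higher in PA- than in IVP-eSLCs (95% interval -1.40 to 3.96), and with the slide as a block they were 2.22 and 2.31 (adjusted p = 0.717 and 0.934). The PA lines were close to each other (31990 and 33600) and both lay above both NT lines, but I2 was higher than either. TDG was -0.77 in PA- against NT-eSLCs (SE 0.368, 95% interval -1.67 to 0.13), with both PA lines below both NT lines. Arrays that did not overlap between PA- and NT-eSLCs were found for 3 of the 5 genes (DNMT3A, DNMT1 and TDG), beside 36.9% of all tested genes. The intervals leave room for differences of several fold in the de novo enzymes, so that these arrays do not show the origins to be alike.

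The genes of most like pattern over the 8 arrays were looked for among 10948 tested genes, by the root mean square difference of log2 signals after each gene was centred on its own mean. This measure describes a pattern and was not tested. Nearest to DNMT3B were M-SAA3.2 (0.31), DNMT3A (0.39) and SAA3 (0.40), and nearest to DNMT3A were DNAAF11 (0.26), SAA3 (0.37) and DNMT3B (0.39). The de novo enzymes thus ranked 2 and 3 in each other's order. Floor values entered the measure: DNMT3B and DNAAF11 lay at 13.28 in both SC samples, and M-SAA3.2 did in SC P5. Genes at the floor in SCs are alike there whatever their levels below it. M-SAA3.2 and SAA3 encode closely related serum amyloid A proteins whose probes may share signal, and DNAAF11 encodes a factor for the assembly of ciliary dynein. M-SAA3.2 read 960.3 in I2, 246.4 in I9, 164.1 in N2, 800.1 in N7, 962.7 in P1 and 805.7 in P4, against 13.28 and 23.05 in SCs. Over the 6 eSLC arrays alone DNMT3A ranked 17 for DNMT3B and DNMT3B ranked 7 for DNMT3A, and with series matrix values the ranks were 248 and 827.

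The genes nearest to UHRF1 were others: TMPO (0.20), which encodes a nuclear lamina protein, the histone gene H4C16 (0.21), one of many nearly identical H4 genes, and ESPL1 (0.22), the separase that frees sister chromatids. ESPL1 read 5794 in I2, 8581 in I9, 7133 in N2, 5883 in N7, 5229 in P1 and 6099 in P4, against SC values of 1504 (P5) and 3406 (P10). Like UHRF1 it was low in SC P5 and higher in SC P10. TDG ranked 349 for UHRF1 and DNMT1 ranked 5815. Over the 6 eSLC arrays alone the genes nearest to UHRF1 were CDADC1, ARHGAP1 and TNFAIP8L1 (0.09 each). TMPO, H4C16 and ESPL1 were not among these, so their place rests in part on the SC samples. With series matrix values of all 8 arrays ESPL1 and H4C16 (0.22 each) were nearest.

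**Figure D4:**
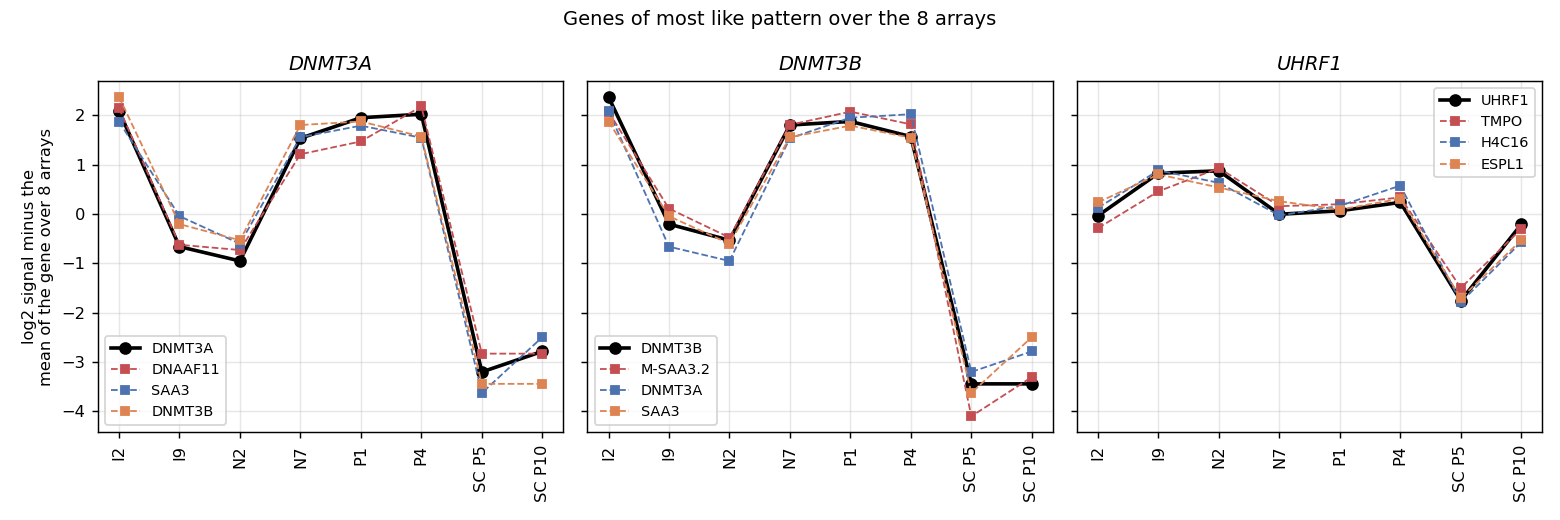
log2 signal of DNMT3A, DNMT3B and UHRF1 (black) and of the 3 genes of most like pattern, each centred on its mean over the 8 arrays. DNMT3A and DNMT3B share the dip at I9 and N2 and the low SC samples, while UHRF1 is lowest in SC P5.

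DNMT1 and UHRF1 act in S phase. Of 15 tested genes of S phase and cell division, 10 were called higher in eSLCs and none lower, beside 19.7% and 15.7% of all tested genes, with a median log2 difference of 1.16 beside 0.23 over all genes. The replication licensing factor CDC6 was higher by 2.60 (limma adjusted p = 0.0121), the mitotic kinase CDK1 by 1.81 (adjusted p = 0.00219), the ribonucleotide reductase subunit RRM2 by 1.70 (adjusted p = 0.0278) and the replicative helicase subunit MCM5 by 1.60 (adjusted p = 0.00869). Their summed signal was 134300 to 155200 in eSLCs, 45390 in SC P5 and 87300 in SC P10, so that SC P5 was lowest and SC P10 between, the order UHRF1 had. Its part in the UHRF1 values was not tested. The count of 10 fell to 6 without P4 and to 3 without SC P5. Without SC P5, RRM2 was 0.88 and CDC6 1.52, and RRM2 was no longer called (adjusted p = 0.170). RRM2 also missed the threshold without I2, without I9 and without P4 (adjusted p = 0.0552 to 0.0663).

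Among the other writers and their partners, 5 genes were tested, and 1 was called higher and 2 lower. This stands beside 19.7% of all tested genes called higher and 15.7% called lower. CDCA7, which binds HELLS and recruits it to chromatin, read 4009 in I2, 9241 in I9, 12010 in N2, 3227 in N7, 3564 in P1 and 5285 in P4, and its SC values were 521.4 (P5) and 1722 (P10). It was highest in N2 and I9, as UHRF1 was by its brightest probe, and its log2 difference was 2.53 (SE 0.696, limma adjusted p = 0.0277). Its relative CDCA7L was lower by 3.54 on the log2 scale (13.28 to 47.03 against 250.2 and 331.5, adjusted p = 0.000843), and TRDMT1, which methylates transfer RNA, was lower by 1.38 (264.4 to 572.3 against 918.3 and 1047, adjusted p = 0.0146). CDCA7 was no longer called without I9, P1, P4 or SC P10 (adjusted p = 0.0551 to 0.0686) or without SC P5 (1.67, adjusted p = 0.238), and TRDMT1 not without SC P5 or SC P10 (adjusted p = 0.0930 and 0.118).

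Of 12 tested genes of demethylation and base excision repair, the processes TDG serves, 2 were called and both were lower in eSLCs, beside 15.7% of all tested genes called lower. GADD45G read 1969 to 5275 in eSLCs against 13990 and 14300 in SCs (log2 difference -2.21, limma adjusted p = 0.00234), and GADD45A read 3823 to 6794 against 15170 and 17070 (-1.52, adjusted p = 0.00493). Both encode stress-response proteins that have been linked to demethylation through repair. The repair enzymes of the list (MBD4, SMUG1, UNG, NEIL1, NEIL2, APEX1, LIG3, POLB and PARP1) were not called, at log2 differences of -0.16 to 0.80. GADD45A missed the threshold without SC P10 (-1.43, adjusted p = 0.0567). Of 7 tested readers of methylated or unmethylated CpG, ZBTB33 (Kaiso), which binds methylated CpG, was called, and it was lower by 1.02 (902.3 to 1390 against 2420 and 2421, adjusted p = 0.00872), a difference near to 2-fold that was not called without I9 or N7 (-0.98 and -0.92) or without SC P5 or SC P10 (adjusted p = 0.0658 and 0.0614).

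The methyl donor cycle supplies S-adenosylmethionine, the methyl source of the DNMT enzymes, and 3 of its 11 tested genes were called higher and 1 lower, a share near the 35.4% of all tested genes called in either direction. SHMT1, which loads one-carbon units onto folate, read 446.8 to 875.8 in eSLCs against 23.82 and 74.33 in SCs (log2 difference 3.75, limma adjusted p = 0.00158). MTR, the methionine synthase, was higher by 1.89 (adjusted p = 0.00283) and AHCY, which clears the inhibitory product of methylation, by 1.44 (adjusted p = 0.00342). AHCYL1, which resembles AHCY in sequence, was lower by 1.05 (adjusted p = 0.00453), and its difference was under 2-fold without N7 (-0.99) and without SC P10 (-0.96). MAT2A, which makes S-adenosylmethionine, read 6188 to 11530 against 12750 and 14650, a difference of -0.86 (adjusted p = 0.0357) that was below 2-fold.

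TET genes had no probe with a matching accession, but 8 genes of their cofactor supply and partners were tested. Of these, 1 was called higher and 3 lower, beside 19.7% and 15.7% of all tested genes (35.4% in either direction). IDH1, the cytosolic maker of the TET cofactor 2-oxoglutarate, read 10790 in I2, 6594 in I9, 7261 in N2, 2330 in N7, 16980 in P1 and 8517 in P4, against SC values of 781.0 (P5) and 468.8 (P10) (log2 difference 3.63, SE 0.531, limma adjusted p = 0.00281). The mitochondrial enzymes IDH3A (-1.32, adjusted p = 0.0124) and IDH2 (-1.07, adjusted p = 0.0467) were lower, as was OGT (-1.08, adjusted p = 0.0107), which binds TET proteins. Without SC P5 or without SC P10 none of these 3 lower genes was called (adjusted p = 0.0617 to 0.216). IDH2 was also lost without any of I2, I9, N7, P1 or P4 (-0.88 to -1.16), and OGT without P4 (-0.97). With the mean of each gene's probes OGT (-0.54, limma adjusted p = 0.14) and IDH2 (-0.77, adjusted p = 0.178) were not called, while IDH3A was (-1.24).

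Of 4 tested keepers of methylation at imprinted loci, the histone methyltransferase EHMT2 was called higher (5257 to 10190 against 1911 and 2413, log2 difference 1.95, limma adjusted p = 0.00183). This is 1 of 4 genes, beside 19.7% of all tested genes called higher. TRIM28, the corepressor of this group, read 37910 to 60730 against 28280 and 28890, a difference of 0.74 that was below 2-fold. DPPA3 was well above background on 1 eSLC array and was not tested. Of 8 germline genes with probes that are commonly silenced by DNA methylation, 3 were tested and 1 was called higher, beside the same 19.7%. This gene, SYCP3, a protein of the meiotic chromosome axis, read 572.7 in I2, 443.4 in I9, 475.3 in N2, 1497 in N7, 401.0 in P1 and 299.9 in P4, against 37.11 and 40.05 in SCs (log2 difference 3.78, limma adjusted p = 0.0011). N7 was highest for SYCP3 and for MAEL (505.6), which lay at the floor in I9, N2 and both SC samples. MAEL was not called (log2 difference 2.08, limma adjusted p = 0.304). SYCE1, the remaining gene tested, was lowest in N7, at the floor. It read 19.48 to 53.94 in the other lines and 33.97 (P5) and 17.28 (P10) in SCs, and was not called.

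**Figure D5:**
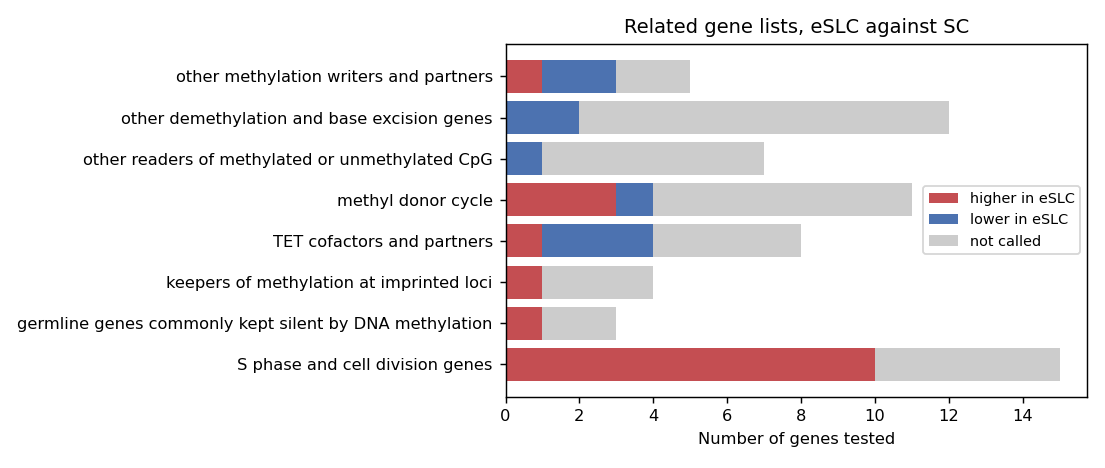
Number of genes tested in each of 8 related lists, divided into those called higher in eSLCs than in SCs, called lower, and not called. The S phase list holds 10 genes called higher of 15, the methyl donor cycle 3 higher and 1 lower of 11, and the demethylation and repair list 2 lower of 12, beside 19.7% higher and 15.7% lower over all 10957 genes.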

How the data were processed

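The authors scanned 8 one-colour arrays with Feature Extraction 11.5.1.1 and deposited each array's spot signals as linear intensities with no normalization between arrays, and a series matrix of processed linear intensities from GeneSpring GX, whose normalization is not described further in the sources used here. The scanner's processed signal was out of step with its other columns in 6 of the 8 files (Spearman correlation with the background-subtracted signal 0.1593 to 0.2153, and 0.9729 and 0.9714 in I2 and N2), so the background-subtracted signal was used.

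Control spots and spots marked as outliers (1 to 11 per array) were left out, and spots of 1 probe were averaged. Signals were divided by each array's 75th percentile, multiplied by 1000, raised to a floor of 13.3 and log2-transformed. Probes were named through RefSeq accessions without version, with gene symbols of the RefSeq table of assembly ARS-UCD2.0, and each gene was given by its brightest probe. Genes were tested where 1 or more conditions had that probe well above background on both of their arrays. limma 3.58.1 in R 4.3.3 fitted a mean for each of the 4 conditions over all 8 arrays, and eSLC is the mean of the 3 origin means. The number of arrays limits the precision. Slide 1 held I2, I9, N7 and SC P5, and slide 2 held N2, P1, P4 and SC P10. The fit was tested on simulated data. Figures were drawn with matplotlib 3.10.9 under Python 3.11.15.

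The members and gene lists were chosen with earlier results of these data known, and 1 gene of the methyl donor cycle is not reported here. Named are all members, of each other pathway list the genes called for eSLC against SC (all where 5 or fewer were, otherwise the 4 largest in each direction whose arrays did not overlap), and the 3 genes most like each of the 3 members that differed most between eSLC and SC. Genes named beside these, among them MAT2A, TRIM28, MAEL and the cell type markers, were chosen after their values were seen. Alternatives were other scalings, filters, floors and signal columns, normexp on the median spot signal (no mean spot signal was among the columns used), the mean of a gene's probes, each probe alone and within-slide values (both chosen after seeing the data), a slide block, only the conditions compared, SC as 1 sample, the methods' 2-fold rule and t-test, and leaving out each array.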

Additional observations from a re-analysis of the deposited data

How the results depend on the processing

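No paired analysis was possible because the labels call every sample replicate 1, and the numbers used here follow the order of deposit. The slide, which holds arrays of several groups, was used as a block instead. Array number limits every result: SC has 2 arrays and each origin 2.

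Of the 5 genes, those called in eSLC against SC numbered 2. The number was 1 with genes well above background on all 8 arrays (DNMT3B is then not tested) and with the processed signal, 0 with SC as 1 sample, 3 (UHRF1 added) with slide as a block, with the 6 eSLC arrays as 1 condition, with the methods' t-test unadjusted and at 2-fold without a test, and 0 to 2 over the leave-one-out fits (0 without SC P5; 1 without SC P10, which was UHRF1). For IVP-eSLC against SC it was 2, and 1 with genes above background on all 8 arrays, without a filter, with only the conditions compared and with slide as a block (then UHRF1); it was 0 with the processed signal, SC as 1 sample and the methods' t-test, adjusted or not, and 0 to 2 over leave-one-out fits. For NT-eSLC it was 1, and 0 without a filter, with SC as 1 sample, with only the conditions compared and with the methods' t-test, adjusted or not, 2 with series matrix values and with slide as a block, 3 at 2-fold without a test, and 0 to 2 over leave-one-out fits. For PA-eSLC it was 2, and 1 above background on all 8 arrays, 0 with the processed signal and SC as 1 sample, and 0 to 2 over leave-one-out fits. Between origins it was 0, except 1 in PA against IVP and 2 in PA against NT at 2-fold without a test.

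With the processed signal, DNMT1 turned to 3.00 against SC (4.78 in IVP, 3.97 in NT and 0.24 in PA), UHRF1 to -0.80 in PA, CDCA7L to 1.03 and ZBTB33 to 3.44, and DNMT3A to -0.47 in PA against NT. NT against IVP changed sign for DNMT1, DNMT3A and UHRF1 with the processed signal (-0.82, 0.58 and -0.31) and series matrix values (-0.14, 0.21 and -0.12), for DNMT1, DNMT3A, DNMT3B and UHRF1 with slide as a block (-0.07, 0.10, 0.14 and -0.57), and for UHRF1 with the mean of its probes (-0.11). TDG in PA against IVP was 0.02 with series matrix values. Over leave-one-out fits, NT against IVP spanned -0.21 to 0.24 for DNMT1, -1.80 to 0.95 for DNMT3A, -1.74 to 0.84 for DNMT3B, -0.40 to 0.48 for UHRF1 and -0.23 to 0.78 for TDG. PA against IVP spanned -0.10 to 2.65 for DNMT3A, -0.65 to 1.93 for DNMT3B, -0.68 to 0.18 for UHRF1 and -1.0 to 0.01 for TDG, and PA against NT -0.08 to 2.26 for DNMT3B and -0.72 to 0.16 for UHRF1. All genes called in eSLC against SC numbered 3874, and 502 with the processed signal, 2468 with SC as 1 sample and 2414 without SC P5; over all alternatives they numbered 285 to 4481 in IVP (3542 as reported), 292 to 4281 in NT (3263) and 252 to 4738 in PA against SC (3862), and 0 to 594, 548 and 1227 between origins, the highest at 2-fold without a test. The related lists lost most calls with the processed signal: the 10 S phase genes went to 0 (5 with series matrix values), the 4 of the methyl donor cycle to 1, the 4 of TET cofactors to 1 (1 with series matrix values and SC as 1 sample, 2 with the mean of probes), and the 3 other writers to 0 (1 with SC as 1 sample), the 2 demethylation genes to 0 (1 with SC as 1 sample), and the single reader, imprint and germline genes to 0. The reader was also lost with normexp, series matrix values and SC as 1 sample. The causes were not tested.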
